A study of Mus musculus with 12 samples.

Results

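The Nr4a genes Nr4a1, Nr4a2 and Nr4a3 were followed through the striatum of hemiparkinsonian mice after acute and chronic L-DOPA. They were taken by gene symbol from the deposited transcript list and have 20 transcripts in it (3 for Nr4a1, 11 for Nr4a2 and 6 for Nr4a3), of 189364 transcripts that name a gene and 52169 genes. RNA was sequenced from 12 libraries in 4 groups of 3. All mice were of the C57BL/6J strain and had received 1 µl of the dopaminergic toxin 6-OHDA at 3 µg per µl into the medial forebrain bundle of the right hemisphere, with desipramine at 25 mg/kg given beforehand to spare noradrenergic neurons. The acute groups were killed 1 h after a single dose of L-DOPA (10 mg/kg with 7.5 mg/kg benserazide), and the chronic groups 1 h after the last of 9 daily doses. In each treatment the lesioned striatum (right) was compared with the unlesioned striatum (left). Every group had received L-DOPA, so the lesion alone and the response of the lesioned side to L-DOPA cannot be told apart. According to the labels the striatum was sampled as 3 punches of 2 mm diameter, whereas the paper's gene expression methods name 1 punch per hemisphere. In such tissue fewer cells of a type and less RNA per cell cannot be told apart.

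Nr4a1 (also called Nur77), Nr4a2 (Nurr1) and Nr4a3 (Nor1) encode orphan nuclear receptors, transcription factors that act without a known hormone and whose activity is set mainly by how much of them is made. They are early response genes: calcium, cAMP and growth factor signals switch them on within minutes through factors such as CREB, MEF2 and SRF. In the brain Nr4a2 is best known for the development and upkeep of midbrain dopamine neurons, while Nr4a1 and Nr4a3 are known in the striatum as genes that respond to dopaminergic drugs.

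The libraries held between 87695043 and 173116525 counts over all transcripts, where a read was counted on each transcript that it overlaps. Levels are given as CPM, the counts of a transcript scaled to the library's total with TMM factors over the 12 libraries, and 3 counts in a library corresponded to 0.0171 to 0.0347 CPM. The tissue carried its markers: the summed level of 5 genes of striatal medium spiny neurons was 982 to 1566 CPM in every library, whereas Slc6a3, the dopamine transporter of nigral neurons, stayed at or below 0.0648 CPM. The second chronic unlesioned library stood apart in choroid plexus genes, with a sum of 480 CPM for 5 markers against 3.68 to 11.6 CPM elsewhere. Genes of cortical glutamatergic neurons differed between libraries of the same group, and their values are given beside Nr4a2 below. The labels count 12 mice, 3 for each group, whereas the study describes the unlesioned side as a control within each mouse for this model in general. The p-values measure the spread between these libraries.

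Each gene is represented by its transcript with the most counts. For Nr4a1 it is NM_010444, with 7 exons and 2477 nt, at chr15:101097277-101105226 on the plus strand of mm9. For Nr4a2 it is ENSMUST00000028166, with 8 exons and 3568 nt, at chr2:56959241-56967449 on the minus strand. For Nr4a3 it is ENSMUST00000030025, with 8 exons and 5720 nt, at chr4:48058025-48099317 on the plus strand. The 250 bases before these starts are printed from the mm9 genome, since CREB, a regulator of all 3 genes, binds the cAMP response element (CRE). Capitals mark the full CRE, TGACGTCA, and its shorter form TGACG, searched on both strands, so that CGTCA is the short form on the opposite strand and a full CRE holds 2 short forms.
Nr4a1, chr15:101097027-101097276, plus strand: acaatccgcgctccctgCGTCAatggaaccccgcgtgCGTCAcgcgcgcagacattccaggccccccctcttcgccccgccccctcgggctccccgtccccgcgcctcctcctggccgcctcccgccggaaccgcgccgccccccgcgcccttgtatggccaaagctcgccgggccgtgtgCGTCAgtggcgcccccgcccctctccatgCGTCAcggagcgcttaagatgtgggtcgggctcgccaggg
Nr4a2, chr2:56967450-56967699, minus strand: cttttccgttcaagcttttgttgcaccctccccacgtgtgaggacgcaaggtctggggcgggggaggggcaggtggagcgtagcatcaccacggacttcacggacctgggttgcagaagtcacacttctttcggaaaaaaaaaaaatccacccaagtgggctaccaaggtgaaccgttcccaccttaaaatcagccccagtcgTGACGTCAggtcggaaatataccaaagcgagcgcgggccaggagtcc
Nr4a3, chr4:48057775-48058024, plus strand: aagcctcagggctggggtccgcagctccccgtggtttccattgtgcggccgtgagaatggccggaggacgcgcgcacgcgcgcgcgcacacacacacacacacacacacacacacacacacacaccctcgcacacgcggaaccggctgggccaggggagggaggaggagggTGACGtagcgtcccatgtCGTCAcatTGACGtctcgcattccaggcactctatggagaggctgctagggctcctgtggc

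The Nr4a2 window held 1 full CRE, whose first base lay at -47 from the start. The Nr4a1 window held 4 short forms, at -233, -213, -69 and -40, and the Nr4a3 window held 3, at -79, -61 and -53. A full CRE was found in 1.18% and a short form in 14.0% of 52140 windows of the same length, 1 for each gene. Neither AAAGGTCA, the NBRE to which NR4A receptors bind (1.14% of windows), nor a CArG box, the element of SRF (1.33% of windows), was found in the 3 windows. The RefSeq start used for Nr4a1 is at the same base and that for Nr4a3 lies 152 bases downstream, whereas that for Nr4a2 lies 8965 bases upstream, at 56976414. The transcript list also holds a RefSeq form of Nr4a2, NM_013613, that starts at the representative's base, 56967449. The window before that upstream start held 4 short forms and no full CRE. A match of letters describes the sequence and was not tested for binding.

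In the acute groups all 3 genes were higher in the lesioned striatum. Nr4a1 was at 38.2, 43.4 and 46.7 CPM in the unlesioned libraries. It was at 217, 213 and 215 CPM in the lesioned libraries. The groups were far apart, and the 3 lesioned libraries lay close together. This was a rise of 2.34 on the log2 scale (SE 0.08), or 5.05-fold, at an adjusted p of 1.35e-09 by the quasi-likelihood test of edgeR, with p-values adjusted over all transcripts (Benjamini-Hochberg). Nr4a3 was at 12.9, 12.0 and 11.4 CPM in the unlesioned and at 83.0, 78.4 and 78.4 CPM in the lesioned libraries. Its groups did not overlap either, and its rise was 2.73 (SE 0.07), or 6.62-fold (adjusted p = 2.91e-10, edgeR).

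Nr4a2 was the lowest of the 3 genes in every library and had the smallest fitted rise in the acute groups. It was at 4.26, 1.68 and 1.88 CPM in the unlesioned libraries. It was at 8.34, 5.51 and 5.18 CPM in the lesioned libraries. The groups did not overlap, but the first unlesioned library (4.26 CPM) came close to the lowest lesioned library (5.18 CPM). The rise was 1.27 (SE 0.29), or 2.41-fold, at an adjusted p of 0.0140 in edgeR. It did not pass the threshold in DESeq2 (adjusted p = 0.0609), in a fit over all 12 libraries (0.134) or without the third unlesioned library (0.0676). When same-numbered libraries were paired in the fit (replicate block), it was 1.32 (SE 0.11, adjusted p = 1.94e-06, edgeR).

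Of the 20 transcripts 19 could be tested in the acute comparison and 17 were called higher, where 6.85% of all 129674 transcripts tested were called higher and 6.02% lower. None of the 19 was called lower. The 17 fell to 9 in the fit over all 12 libraries and without the third unlesioned library. The 2 that missed the threshold were short Nr4a2 forms, ENSMUST00000140165 (log2 1.04, adjusted p = 0.0576, edgeR) and ENSMUST00000128776 (1.02, adjusted p = 0.193). Transcripts of a gene share most of their reads, so these counts are not independent events. Cell type markers differed between the same groups. Every lesioned library was above for 4 of 4 D2 medium spiny neuron, 5 of 7 microglial and 3 of 5 astrocyte markers. Every one was below for 4 of 5 medium spiny neuron markers. For the 4 markers of D1 medium spiny neurons, 3 were below and 1 above. Their part in the levels of the Nr4a genes was not tested in this comparison.

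**Figure D1:**
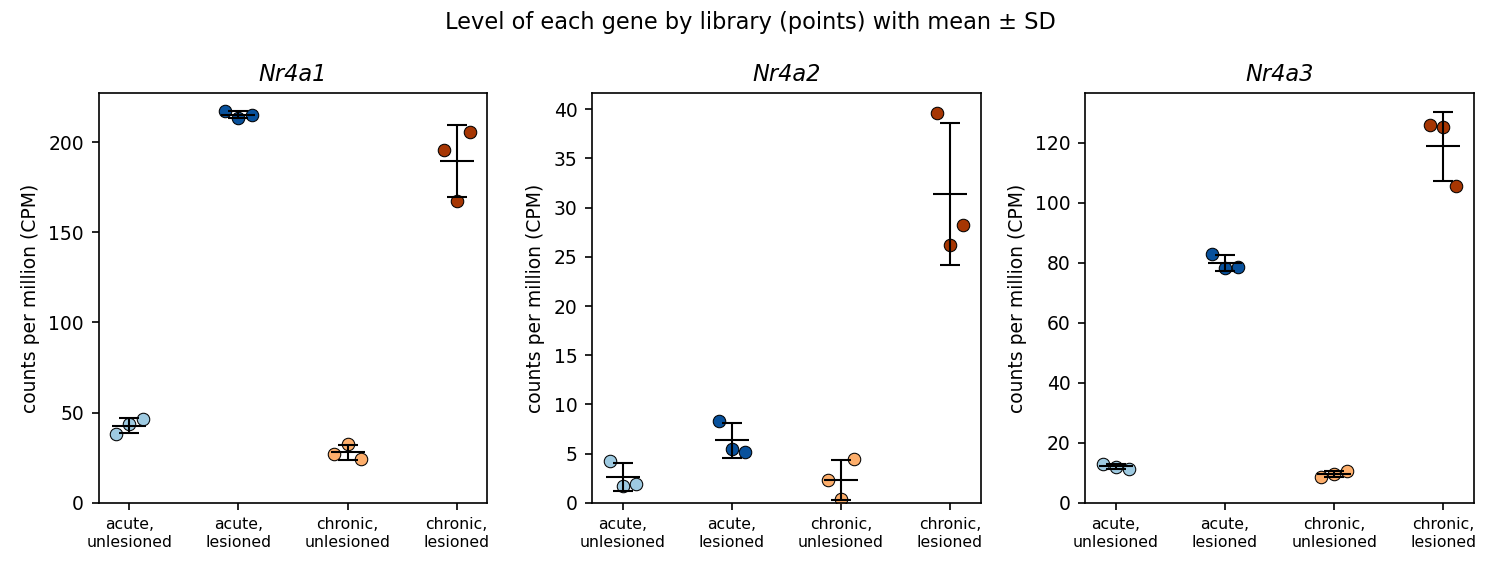
Level of each Nr4a gene in CPM on the vertical axis (linear, from 0) in the 4 groups on the horizontal axis, with a point for each library and bars for the mean ± SD of 3 libraries. Between the lesioned groups the mean of Nr4a1 goes from 215 to 189 CPM, that of Nr4a3 from 79.9 to 119 CPM and that of Nr4a2 from 6.34 to 31.4 CPM.

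After chronic L-DOPA all 3 genes were again higher in the lesioned striatum. Nr4a1 was at 27.3, 32.3 and 24.1 CPM in the unlesioned and at 195, 167 and 206 CPM in the lesioned libraries. Nr4a3 was at 8.63, 9.65 and 10.5 CPM in the unlesioned and at 126, 125 and 105 CPM in the lesioned libraries. Neither gene's groups overlapped. The rise was 2.76 (SE 0.13), or 6.79-fold, for Nr4a1 (adjusted p = 2.35e-07, edgeR) and 3.63 (SE 0.11), or 12.4-fold, for Nr4a3 (adjusted p = 1.94e-08, edgeR).

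The fitted rise of Nr4a2 was here as large as that of Nr4a3, with a wider error. Nr4a2 was at 2.27, 0.36 and 4.42 CPM in the unlesioned libraries. It was at 39.6, 26.2 and 28.3 CPM in the lesioned libraries, so that the lowest lesioned library was above the highest unlesioned library by a wide margin. The rise was 3.71 (SE 0.55), or 13.1-fold (adjusted p = 0.00163, edgeR). Its size depended on the unlesioned libraries, which differed widely: it was 3.21 (SE 0.26, adjusted p = 1.35e-05) without the second and 4.60 (SE 0.55, adjusted p = 0.00119) without the third unlesioned library. All 19 transcripts tested were called higher, where 7.71% of 127063 transcripts tested were called higher and 4.33% lower.

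Chronic and acute L-DOPA were compared within each side, on the same libraries that enter the lesion effects. In the lesioned striatum Nr4a2 was 2.30 higher on the log2 scale after chronic L-DOPA (SE 0.19), or 4.92-fold (adjusted p = 2.58e-05, edgeR), with 26.2 CPM in the lowest chronic and 8.34 CPM in the highest acute library. Nr4a3 was 0.57 higher (SE 0.08), or 1.49-fold (adjusted p = 0.00109, edgeR), again without overlap of the libraries. For Nr4a1 the difference was -0.18 (SE 0.09) and did not pass the threshold (adjusted p = 0.154, edgeR), although its 3 chronic libraries all lay below the acute ones. Of the 19 transcripts tested 16 were called higher and none lower, where 12.1% of 127463 transcripts tested were called higher and 11.2% lower. The 3 transcripts not called were those of Nr4a1. Markers of other cell types differed between the same groups. Of 4 markers of D1 medium spiny neurons, 3 had every chronic lesioned library above the acute ones and none every one below, and their sum was 122 to 135 CPM in the acute and 281 to 326 CPM in the chronic libraries. Pdyn, an opioid precursor, carried 178 to 194 CPM of the latter, while Drd1a, the D1 receptor, was at 11.2 to 15.0 CPM in the acute and 22.1 to 32.7 CPM in the chronic libraries. The unlesioned libraries held 62.6 to 69.0 (acute) and 65.6 to 76.1 CPM (chronic) of Drd1a. Isl1 was at 1.87 to 1.98 and 3.81 to 4.69 CPM in the lesioned groups. The remaining marker, Tac1, overlapped and had a lower chronic mean, at 86.5 to 99.8 and 72.5 to 98.9 CPM. Of 7 microglial markers 6 had every chronic lesioned library below the acute lesioned ones, with sums of 79.2 to 93.1 and 51.1 to 63.5 CPM. So did 3 of 4 D2 medium spiny neuron, 3 of 4 blood and 3 of 5 astrocyte markers. The same held for 3 of 6 oligodendrocyte and 2 of 6 endothelial markers, and none of these lists had such a marker above. Every chronic library was above for 2 of 4 dopamine neuron, 2 of 5 choroid plexus and 1 of 5 medium spiny neuron markers. Their part in the levels of the Nr4a genes was not tested.

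In the unlesioned striatum 1 of the 3 genes was called lower after chronic L-DOPA. Nr4a1 was lower by 0.62 on the log2 scale (log2 -0.62, SE 0.11, adjusted p = 0.0227, edgeR), from a mean of 42.8 CPM ± 4.29 (SD, n = 3) to 27.9 CPM ± 4.15 (SD, n = 3), without overlap. This call was lost on leaving out any library but the second chronic one, with adjusted p from 0.0701 to 0.0995 in edgeR, and on summing the gene's transcripts (0.0638). Nr4a3 differed by -0.34 (SE 0.08, adjusted p = 0.0593, edgeR) and Nr4a2 by -0.15 (SE 0.57, adjusted p = 0.913, edgeR). Neither passed the threshold, though Nr4a3 did in DESeq2 (adjusted p = 0.0188) and without the second chronic library (0.0305, edgeR). The difference of Nr4a2 was 0.43 without the first acute and 0.35 without the second chronic library. Of 18 transcripts tested the 3 of Nr4a1 were called lower, where 0.968% of 129187 transcripts tested were called higher and 1.64% lower. These shares rest on 3366 transcripts, a number that ranged from 66 to 14377 with 1 library left out. Cell type markers differed there as well. All 7 microglial, 5 astrocyte and 6 oligodendrocyte means were lower after chronic L-DOPA, with every chronic library below for 5, 3 and 1 of them. All 4 D1 medium spiny neuron and 5 choroid plexus means were higher, with every chronic library above for 0 and 3. Their part in the levels of the Nr4a genes was not tested here either.

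The difference between the lesion effects of the chronic and acute groups was tested as an interaction over the 12 libraries. The lesion effect of Nr4a3 was larger after chronic L-DOPA by 0.91 (SE 0.12, adjusted p = 0.000456, edgeR), a 1.87-fold larger ratio. For Nr4a2 the estimate was larger, 2.44 (SE 0.70), but missed the threshold (adjusted p = 0.0639, edgeR). When same-numbered libraries of a treatment were paired in the fit (replicate block), it was 2.55 (SE 0.50) and passed (adjusted p = 0.00505, edgeR). Without the second chronic unlesioned library, the one rich in choroid plexus genes, it was 1.94 (SE 0.47, adjusted p = 0.0323, edgeR). Without the third chronic unlesioned library it was 3.34 (SE 0.67, adjusted p = 0.0128, edgeR). For Nr4a1 the estimate was 0.43 (SE 0.15, adjusted p = 0.120, edgeR), and 0.56 (SE 0.13, adjusted p = 0.0309) without the second chronic unlesioned library. Of 19 transcripts tested 8 were called higher, all 6 of Nr4a3 and 2 of Nr4a2, where 3.22% of 130867 transcripts tested were called higher and 1.30% lower. The 2 of Nr4a2 were its short forms ENSMUST00000140165 and ENSMUST00000128776, of which the latter had 45 to 61 counts in the chronic lesioned and 2 to 14 in the other libraries. The block raised the 8 to 16, and the shares of all transcripts called to 6.89% higher and 5.24% lower.

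**Figure D2:**
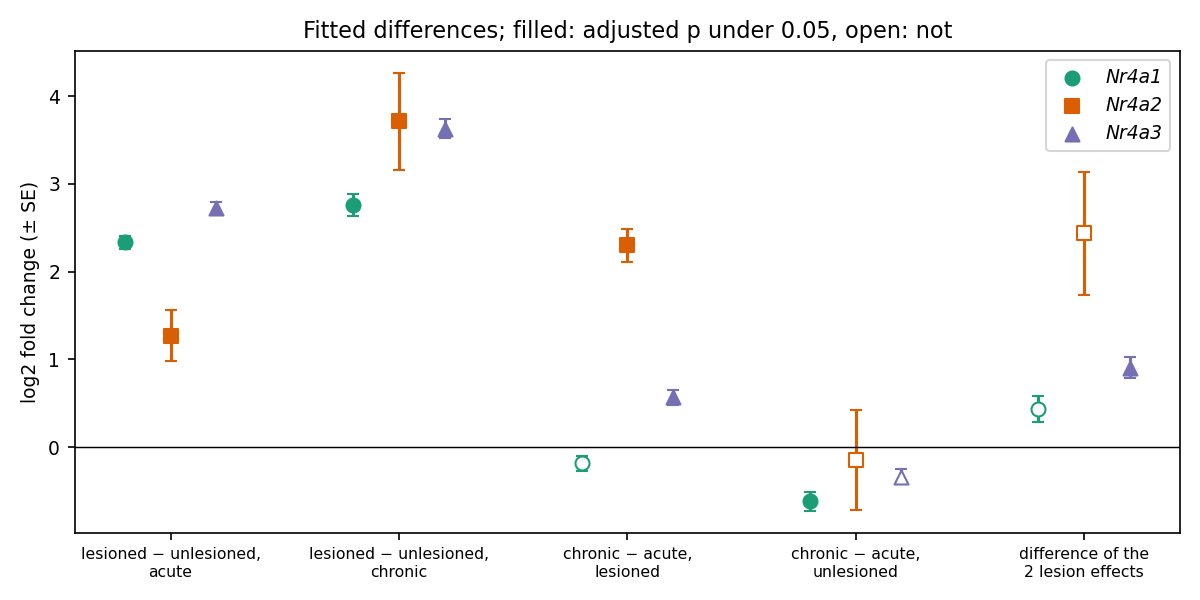
Fitted log2 fold changes (vertical axis) with their SE for the 3 genes in the 5 comparisons (horizontal axis), filled where the adjusted p was under 0.05. Nr4a2 has the widest error of the 3 genes in all 5 comparisons, and its narrowest, 0.19, is between the lesioned groups.

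Per length of transcript, Nr4a1 was the most abundant member in every library. In the acute unlesioned striatum it was at 17.3 CPM per kb ± 1.73 (SD, n = 3), against 2.11 ± 0.13 for Nr4a3 and 0.73 ± 0.40 for Nr4a2. In the chronic lesioned striatum it was at 76.4 CPM per kb ± 8.03, against 20.8 ± 2.02 for Nr4a3 and 8.79 ± 2.03 for Nr4a2. The order of the 3 genes was thus the same in both groups, and in the chronic lesioned libraries none of their values overlapped. In all 12 libraries Nr4a3 lay above Nr4a2, with the smallest gap in the third chronic unlesioned library, 1.83 against 1.24 CPM per kb.

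The sum of the 3 genes was similar in the lesioned groups, 103 CPM per kb ± 1.69 in the acute and 106 ± 8.16 in the chronic libraries (SD, n = 3). Its make-up was different. Nr4a1 made up 83.9 to 85.1% of the sum in the acute and 69.8 to 75.9% in the chronic lesioned libraries. Nr4a3 made up 13.4 to 13.9% and 16.9 to 22.6%, and Nr4a2 made up 1.42 to 2.24% and 7.25 to 9.92%. The acute and chronic lesioned libraries did not overlap in any of the 3 shares, which with 3 libraries a group cannot reach an exact permutation p below 0.10. In the unlesioned striatum the share of Nr4a1 was 81.7 to 88.2% in the acute and 76.0 to 87.95% in the chronic libraries, which overlapped.

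**Figure D3:**
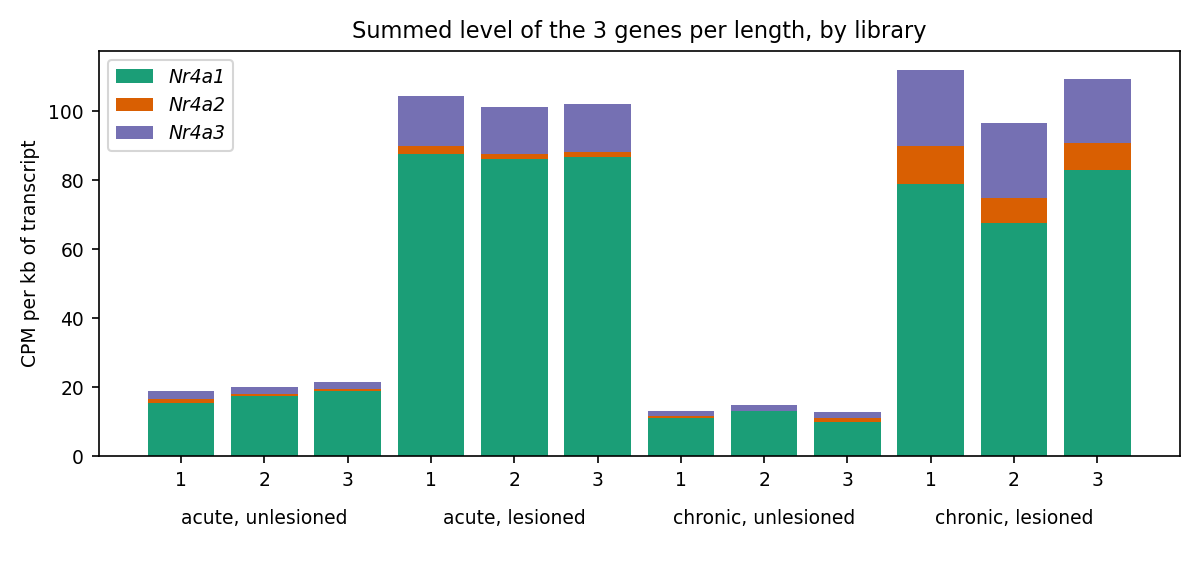
Stacked bars of CPM per kb of transcript (vertical axis, from 0) for the 3 genes in each of the 12 libraries (horizontal axis). The bars of the lesioned groups have similar heights, and the Nr4a2 segment is visibly taller in the chronic lesioned libraries, at 7.35 to 11.1 CPM per kb.

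The transcripts of Nr4a3 allowed a comparison along the gene. ENSMUST00000154186 covers the start of the gene (chr4:48058103-48063037, 3 exons) and AK148353 lies in its last exon (chr4:48097153-48099317). The end of ENSMUST00000154186 lies in an intron of the representative transcript, between its exons ending at 48062000 and starting at 48064118. Reads from that intron enter the values at the start and were not separated. In the acute groups the lesion effect was 3.02 (SE 0.10) at the start and 2.65 (SE 0.09) in the last exon. In the chronic groups it was 3.79 (SE 0.13) and 3.57 (SE 0.11). The ratio of counts per nt at the start to those in the last exon was 0.450 to 0.786 in the acute unlesioned and 0.741 to 0.795 in the acute lesioned libraries, which overlapped. It was 0.560 to 0.685 in the chronic unlesioned and 0.684 to 0.749 in the chronic lesioned libraries, whose ranges met at their edges. Between same-numbered libraries of a treatment, the ratio was higher on the lesioned side in all 6 pairs. This difference between the sides was noticed in the data and was not tested.

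For Nr4a2 the list holds forms with several starts, of which 2 were compared. ENSMUST00000028166 and ENSMUST00000112629 differ in GENCODE M1 only in their first exon, which has 321 nt at the downstream start (chr2:56967129-56967449) and 175 nt at the upstream start (chr2:56976240-56976414). The form with the downstream start had 105, 130 and 128 counts more in the chronic lesioned libraries, out of 2832 to 3479. It had 11 to 29 more in the acute lesioned libraries. AK008679, a single exon at chr2:56975747-56976331 that overlaps the upstream first exon, had at most 5 counts in any library and 22 counts in all. It reaches only to 56976331, so counts on the rest of the upstream first exon, up to 56976414, are not bounded by it. The share of counts from that exon cannot be told from these values. D030020J04Rik, a gene on the same strand within the intron before the shared exons, stayed at or below 6 counts. No transcript of another gene overlapped Nr4a1 or Nr4a3.

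Nr4a2 is also made in glutamatergic neurons of the cortex and claustrum, which a striatal punch can touch. The summed level of the 8 measured markers of cortical glutamatergic neurons ranged from 15.7 to 34.1 CPM in the acute unlesioned, 5.34 to 19.9 in the acute lesioned, 7.94 to 44.6 in the chronic unlesioned and 3.81 to 24.9 CPM in the chronic lesioned libraries. Slc17a7, which encodes the vesicular glutamate transporter of cortical neurons, was at 23.3, 10.6 and 10.2 CPM in the acute unlesioned and at 12.2, 1.64 and 1.25 CPM in the acute lesioned libraries. It was at 18.3, 3.98 and 32.6 CPM in the chronic unlesioned and at 17.8, 1.34 and 1.29 CPM in the chronic lesioned libraries. In each of the 4 groups the library with the most Slc17a7 was also the one with the most Nr4a2. All 8 markers were highest in that library in 3 groups, and 7 of them in the chronic lesioned group.

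Between the sides, the mean level was lower in the lesioned striatum for 6 of the 8 markers in the acute groups, Rorb and Fezf2 being higher, and for all 8 in the chronic groups. Between the lesioned groups 4 of the 8 means were higher and 4 lower after chronic L-DOPA. With the mean log2 level of the 8 markers as a covariate, an alternative added after seeing the data, the lesion effect of Nr4a2 was 1.96 (SE 0.21, adjusted p = 4.66e-05, edgeR) in the acute and 4.85 (SE 0.51, adjusted p = 0.000240, edgeR) in the chronic groups. The interaction of Nr4a2 in that fit was 2.77 (SE 0.51, adjusted p = 0.00621, edgeR). The 8 markers of claustrum, endopiriform nucleus and layer 6b summed to 51.9 to 67.3 CPM in the other 3 groups and to 84.5 to 108 CPM in the chronic lesioned libraries. Synpr, a synaptic vesicle protein that striatal neurons also make, carried 52.3 to 76.5 CPM of that sum, and Nxph4, which encodes a neurexophilin, was at 5.46 to 7.04 CPM there and at most 1.02 CPM elsewhere. These were the only 2 of the 8 markers with every chronic lesioned library above all other libraries, and none had every one below. Against the chronic unlesioned libraries Cplx3 was lower without overlap, at 0.12 to 0.80 against 1.04 to 1.32 CPM, and the libraries overlapped for Gnb4, Ntng2, Lxn, Ctgf and Oprk1. Against the acute lesioned libraries 4 of the 8 were higher without overlap, Synpr, Nxph4, Gnb4 (8.63 to 9.48 against 7.12 to 8.35 CPM) and Oprk1 (5.57 to 7.71 against 3.09 to 3.86 CPM), and 1 was lower, Ntng2. The part of claustral cells in the level of Nr4a2 was not tested.

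**Figure D4:**
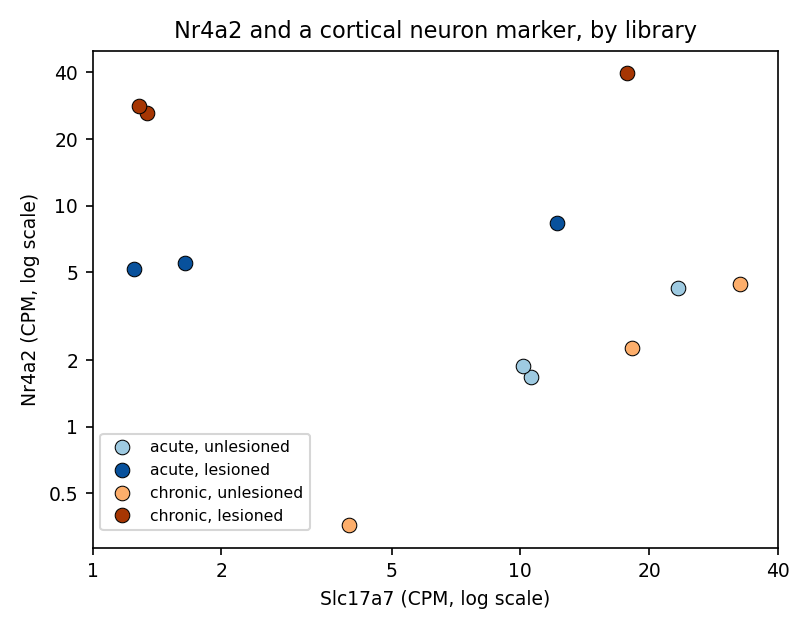
Nr4a2 (vertical axis, CPM, log scale) against Slc17a7 (horizontal axis, CPM, log scale) in the 12 libraries, coloured by group. Within each group the library farthest to the right is the highest, and the chronic lesioned libraries lie above all others at 26.2 to 39.6 CPM, with Slc17a7 at 1.29 to 17.8 CPM.

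The genes around the Nr4a genes were described from 4 lists. Among 14 regulators upstream of them, 3 were called higher and 4 lower in the acute comparison and 2 higher and 2 lower in the chronic comparison, where all 14 were tested. Over all transcripts tested, 6.85% were called higher and 6.02% lower in the acute and 7.71% and 4.33% in the chronic comparison. With the replicate block the counts were 4 higher and 7 lower in the acute and 3 and 3 in the chronic comparison, against 11.3% and 10.4% of all transcripts (acute) and 11.7% and 9.90% (chronic). Crem, whose gene makes activators and repressors of cAMP-driven transcription, rose by 0.88 (SE 0.13, adjusted p = 0.00124, edgeR) in the acute and 1.51 (SE 0.12, adjusted p = 2.35e-05, edgeR) in the chronic groups. Srf, which encodes the serum response factor, rose by 0.99 (SE 0.07, adjusted p = 2.40e-06, edgeR) and 0.96 (SE 0.08, adjusted p = 1.95e-05, edgeR). Rps6ka5, which encodes the kinase MSK1 that acts on CREB and histone H3, was lower in both, with log2 differences of -0.43 (SE 0.07, adjusted p = 0.00219, edgeR) and -0.55 (SE 0.09, adjusted p = 0.00372, edgeR). Creb1, Crtc2 and Mef2d were not called in any of the 5 comparisons. The median over the 14 genes was -0.13 in the acute and -0.07 in the chronic comparison, against 0.01 and -0.02 over all transcripts tested.

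Of the 8 partners and coregulators of NR4A receptors, 7 were tested and none was called higher in any comparison, while 1 was called lower in each lesion comparison, where 6.02% of all transcripts were called lower in the acute and 4.33% in the chronic comparison. With the replicate block 4 of the 7 were called lower in the acute and 3 in the chronic comparison, where 10.4% and 9.90% of all transcripts were. Rxrg, a retinoid X receptor with which NR4A proteins can pair, was called lower in the acute lesioned striatum (log2 -0.30, SE 0.08, adjusted p = 0.0239, edgeR), and Rxra in the chronic (-0.36, SE 0.08, adjusted p = 0.0168, edgeR). Each of these calls was lost on leaving out any of 3 libraries in turn (adjusted p up to 0.0925 and 0.0741, edgeR). Pitx3, the partner of Nr4a2 in midbrain dopamine neurons, was at or below 0.0347 CPM and was not tested. The median over the 7 genes was -0.16 in the acute and -0.22 in the chronic comparison.

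Among 13 described targets of NR4A receptors, 11 were tested. In the acute comparison 1 was called higher and 2 lower, and in the chronic comparison 2 were called higher and 1 lower, with medians of -0.08 and -0.09 over the 11 genes. The shares over all transcripts were the 6.85% higher and 6.02% lower (acute) and 7.71% and 4.33% (chronic) given above. None of the 11 was called in the acute comparison in the fit over all 12 libraries, and with the replicate block 3 were called lower in the acute and 2 in the chronic comparison, where 10.4% and 9.90% of all transcripts were. The lower ones were Bdnf, which encodes a neurotrophin (log2 -1.88, SE 0.56, adjusted p = 0.0458, edgeR), and Vip, which encodes a neuropeptide (-1.06, SE 0.29, adjusted p = 0.0323), in the acute comparison. In the chronic comparison it was Ptpru, which encodes a receptor tyrosine phosphatase (-0.67, SE 0.19, adjusted p = 0.0441, edgeR). Bdnf and Vip were low, at most 0.65 and 0.57 CPM in any library. All 3 calls were lost with the cortical covariate (adjusted p = 0.342, 0.109 and 0.282, edgeR), where Bdnf was at -0.75, and on leaving out single libraries (up to 0.203, 0.128 and 0.172). Th, which encodes the rate-limiting enzyme of dopamine synthesis and is a target of Nr4a2 in midbrain neurons, was at 1.07, 1.44 and 1.80 CPM in the acute lesioned and at 9.65, 8.30 and 10.95 CPM in the chronic lesioned libraries. It stayed between 1.54 and 2.05 CPM in the unlesioned libraries. Its lesion effect was 2.39 (SE 0.12, adjusted p = 4.47e-07, edgeR) in the chronic groups and -0.33 (SE 0.17, adjusted p = 0.225, edgeR) in the acute groups, and the interaction was 2.72 (SE 0.22, adjusted p = 3.72e-06, edgeR).

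Ret, which encodes the receptor for GDNF family ligands, was at 0.83, 1.17 and 1.06 CPM in the acute lesioned and at 3.75, 5.68 and 5.61 CPM in the chronic lesioned libraries. Its unlesioned libraries lay between 0.44 and 0.65 CPM, apart from the choroid plexus-rich chronic library with 2.09. Its lesion effect was 0.81 (SE 0.17, adjusted p = 0.00860, edgeR) in the acute and 2.29 (SE 0.44, adjusted p = 0.00731, edgeR) in the chronic groups. The acute call was lost in the fit over all 12 libraries (adjusted p = 0.283, edgeR) and with the cortical covariate (0.0624). The chronic effect was 3.30 (SE 0.22, adjusted p = 2.55e-06, edgeR) without the choroid plexus-rich library and 1.66 (SE 0.31, adjusted p = 0.00804) with the covariate. The interaction, 1.48 (SE 0.58), did not pass (adjusted p = 0.172, edgeR). Slc18a2, which encodes the vesicular monoamine transporter and is another target in midbrain neurons, was at 0.99 to 1.48 CPM in all libraries and was not called in any comparison, and Slc6a3 was too low to test.

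**Figure D5:**
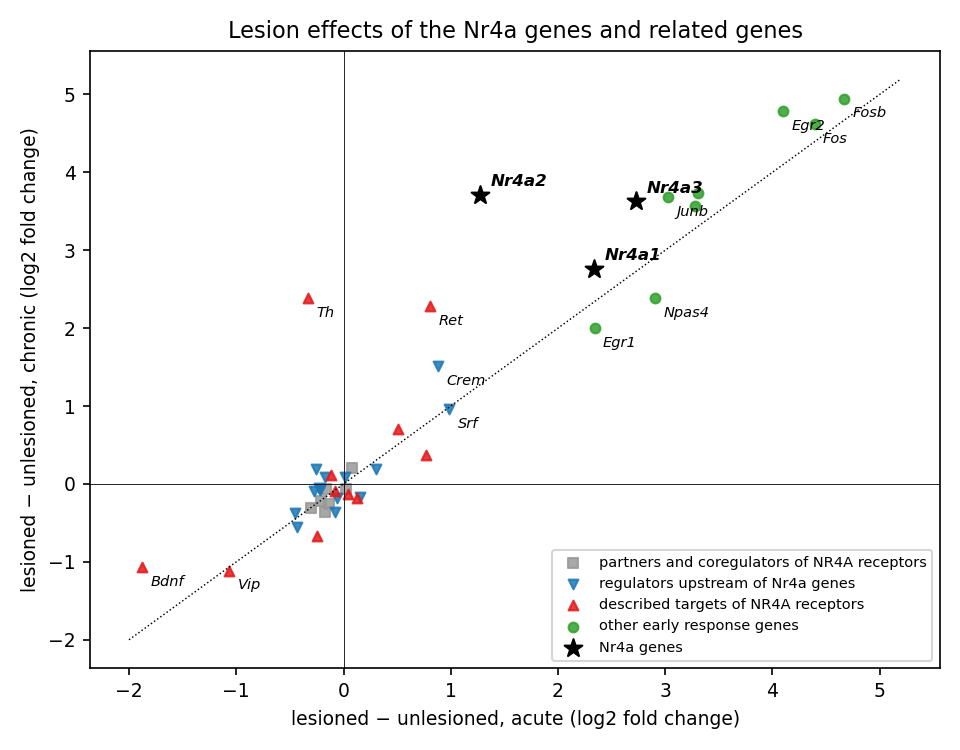
Lesion effect after acute L-DOPA (horizontal axis, log2 fold change) against that after chronic L-DOPA (vertical axis, log2 fold change) for the Nr4a genes (stars) and the tested genes of the 4 lists. The dotted line marks equal effects, and Nr4a2, Th and Ret lie farthest above it.

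The other early response genes rose with the Nr4a genes. All 8 tested (Fos, Fosb, Junb, Egr1, Egr2, Egr4, Arc and Npas4) were called higher in the lesioned striatum in both treatments, where 6.85% of all transcripts were called higher in the acute and 7.71% in the chronic comparison, with a median of 3.29 in the acute and 3.71 in the chronic comparison. Between the lesioned groups 6 of the 8 were called lower after chronic L-DOPA and none higher, where 11.2% of all transcripts tested were called lower and 12.1% higher. Nr4a2 and Nr4a3 were called higher there. Jun and Egr3, early response genes outside the list of 8, also had higher means in the chronic than in the acute lesioned group, 97.6 against 79.7 CPM and 234 against 194 CPM. Egr1, a zinc finger factor, was at 552 to 574 CPM in the acute and 303 to 354 CPM in the chronic lesioned libraries (log2 -0.79, SE 0.08, adjusted p = 0.000105, edgeR). Npas4, an activity-dependent factor of neurons, was at 29.0 to 30.8 and 10.1 to 16.7 CPM (log2 -1.09, SE 0.15, adjusted p = 0.000648, edgeR). In the unlesioned striatum 7 of the 8 were called lower after chronic L-DOPA, like Nr4a1, where 1.64% of all transcripts were called lower. That count was 3 without the first or without the second acute unlesioned library and 8 without the second chronic unlesioned library. The interaction was called for Junb (0.66, SE 0.14, adjusted p = 0.0108, edgeR) and Egr2 (0.69, SE 0.17, adjusted p = 0.0308, edgeR), and with the replicate block for 4 of the 8 genes, where 6.89% of all transcripts were called higher. That of Egr2 was lost on summing its transcripts (adjusted p = 0.0740, edgeR) and on leaving out most of the libraries in turn (up to 0.0904).

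The genes with the most similar pattern were found by Pearson's r of log2 CPM over the 12 libraries, among 12793 genes with a mean of at least 1 CPM. The 12 points share the 4 groups, so r mostly reflects the group means. Nr4a1 was closest to Egr2 (r = 0.998), Egr4 (0.997), Fos (0.995), Gadd45g (0.995) and Junb (0.994). Nr4a3 was closest to Kdm6b (0.995), Jun (0.995), Zfp948 (0.994), Irs2 (0.994) and Egr3 (0.994). Kdm6b encodes a demethylase of histone H3 lysine 27, and its mean was 50.2 CPM in the acute lesioned and 68.6 CPM in the chronic lesioned group, against at most 8.12 CPM in the unlesioned groups.

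No gene followed Nr4a2 as closely. Its nearest were Senp2 (0.942), Sema5b (0.936), Ptp4a2 (0.936), Nptx1 (0.934) and Malt1 (0.931). Of these Nptx1, which encodes a secreted pentraxin of synapses, had the widest range, with a mean of 14.6 CPM in the acute unlesioned, 20.02 in the acute lesioned, 15.8 in the chronic unlesioned and 124 in the chronic lesioned group. Within the family r was 0.971 between Nr4a1 and Nr4a3, 0.829 between Nr4a2 and Nr4a3 and 0.717 between Nr4a1 and Nr4a2.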

How the data were processed

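Libraries were made by the authors from 0.5 µg of total RNA with a TruSeq kit, sequenced on a Genome Analyzer II and mapped to mm9 with Genomatix software. The values used here are the read counts per transcript that the authors deposited without normalization. A read counts on every transcript that it overlaps. How reads with several positions and the strand were treated is not given in the sources used here. The authors' 3 comparison tables, which hold DESeq results and 36 columns of per-sample values, and the authors' normalized expression columns were not used. The 296 rows that name no gene held 0.0485% of counts and were left out.

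For a comparison of 2 groups the fit took the 6 libraries concerned, and for the interaction all 12, in edgeR 4.0.16 (limma 3.58.1, R 4.3.3): filterByExpr, TMM, glmQLFTest and Benjamini-Hochberg adjustment over all transcripts tested. A transcript was called at an adjusted p under 0.05. The SE is the fitted change divided by the root of F. The code was tested on simulated data with 200 changed transcripts. The alternatives were DESeq2 1.42.0, its size factors in edgeR, no filter on low counts, a single transcript per gene, the sum over a gene's transcripts, the replicate number as a block, a fit over all 12 libraries and each library left out. A covariate of cortical marker genes was added after seeing the data. Python 3.11.15 served for tables and motif searches, with pandas 2.3.3 and numpy 2.4.6, and matplotlib 3.10.9 for figures. Promoter windows were read from NCBIM37, which is mm9, and RefSeq starts, given for another build, were placed by exact sequence match.

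The deviation of a library from its group's mean correlated with that of its same-numbered counterpart at 0.478, 0.490 and 0.384 in the acute and 0.513, 0.573 and 0.160 in the chronic groups, over 12796 genes. All exceed the limit of 0.1. The main fits left the libraries unpaired, and the numbers paired the 2 sides of a treatment only in the replicate block. Between treatments the correlations ran from -0.139 to 0.230. Those of the third libraries, 0.230 in the lesioned and 0.139 in the unlesioned striatum, also exceeded 0.1. The limit therefore does not establish that same-numbered libraries came from the same mice. Replicates differed by more than sampling noise, with a chi-square per degree of freedom of 5.51 to 19.8. The reads have no molecular identifiers, so a floor of 3 counts covers counting error only. Genes named are the 3 members, the 5 nearest genes to each and genes of the 4 lists. The values of 1 list gene are not reported here, though it is in the counts of its list. Members and lists were chosen with earlier results of these data known.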

Additional observations from a re-analysis of the deposited data

Results flagged for a closer look

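The lesion effect differed between acute and chronic L-DOPA, by a tested interaction, for 4 of the genes described. It was larger after chronic L-DOPA by 0.91 on the log2 scale for Nr4a3 (SE 0.12, adjusted p = 0.000456, edgeR), by 2.72 for Th (SE 0.22, adjusted p = 3.72e-06), by 0.66 for Junb (SE 0.14, adjusted p = 0.0108) and by 0.69 for Egr2 (SE 0.17, adjusted p = 0.0308). The call of Egr2 was lost on summing its transcripts and on leaving out most of the libraries in turn. For Nr4a2 the estimate of 2.44 (SE 0.70) missed the threshold (adjusted p = 0.0639, edgeR) and passed with the replicate block.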

How the results depend on the processing

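The lesion effects of Nr4a1 and Nr4a3 in both treatments, that of Nr4a2 after chronic L-DOPA, and the 3 differences between the lesioned groups kept their direction and their side of the threshold in all 14 alternatives each, as did the interaction of Nr4a3 in all 19. The acute lesion effect of Nr4a2 did not pass in DESeq2 (log2 1.28) or in the fit over 12 libraries (1.27), and ranged from 1.01 to 1.85 with a library left out. Transcripts called in that comparison fell to 9 of 20 in the fit over 12 libraries and ranged from 9 to 18 with a library left out. In the unlesioned striatum Nr4a1 did not pass when its transcripts were summed (-0.61) and ranged from -0.74 to -0.52 with a library left out. Nr4a3 passed in DESeq2 (-0.33), with no filter (-0.34) and with the cortical covariate (-0.33), and ranged from -0.40 to -0.26. Nr4a2, which was not called there, ranged from -1.03 to 0.43 and was positive without the first acute (0.43) or the second chronic library (0.35). Transcripts called there were 5 in DESeq2, with no filter and with the covariate, and 0 to 7 with a library left out. The interaction of Nr4a2 passed with no filter (2.44), with the replicate block (2.55) and with the covariate (2.77), and ranged from 1.87 to 3.34. That of Nr4a1 ranged from 0.34 to 0.56 and passed without the second chronic unlesioned or the second chronic lesioned library. Transcripts called for the interaction were 16 under those 3 settings and 6 to 18 with a library left out. With the replicate block, transcripts of all genes called went from 16684 to 28237 in the acute, from 15295 to 27505 in the chronic comparison and from 5911 to 15876 for the interaction. The block changed no other call of an Nr4a gene. Without single unlesioned libraries, transcripts of all genes called between the unlesioned groups ranged from 66 to 14377, against 3366. Of 902 alternatives for 63 called differences of list genes, 101 lost the call and 0 changed sign. The causes were not tested. The count of Nr4a2 in the second chronic unlesioned library, 43, limits its precision there.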
